A study of Homo sapiens with 27 samples.

Results

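The 10 keratins KRT5, KRT7, KRT8, KRT13, KRT15, KRT17, KRT18, KRT19, KRT80 and KRT81 were described across 22Rv1, DU145 and PC3, 3 established lines of human prostate cancer, each with and without CRISPR guide RNAs against RIPK2. They were taken by symbol from the deposited read count tables, as 10 of 27546 symbols listed in any table; the rule names symbols and uses no measured value, but the list was drawn up with earlier results of these data known. Of the 10, the 22Rv1 table listed 8 (KRT13 and KRT17 had no row), that of DU145 listed 9 (KRT5 had no row) and that of PC3 all 10. Enough reads for a test within the line were held by 4 of the 10 in 22Rv1, 7 in DU145 and 8 in PC3. The rows of KRT5 and KRT17 passed that filter in no line.

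Keratins are the intermediate filament proteins of epithelial cells, and each filament is built from pairs of one acidic type I chain and one basic type II chain. In the prostate, luminal cells are known for the pair KRT8 and KRT18 together with KRT19, whereas basal cells are known for KRT5, KRT15 and KRT17. Among the 10 genes, 5 encode type II chains (KRT5, KRT7, KRT8, KRT80 and KRT81) and 5 encode type I chains (KRT13, KRT15, KRT17, KRT18 and KRT19).

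RNA was sequenced from 27 libraries, 3 for each of 9 groups. Each line, 22Rv1, DU145 and PC3, had cells with a control guide (genotype WT) and 2 populations labelled RIPK2 knockout. One of these carried gRNA 10 in every line, and the other carried gRNA 1 in 22Rv1 or gRNA 2 in DU145 and PC3. It is not stated if the populations are clones or pools, nor that replicates were separate cultures, so p-values measure the spread between these libraries, which may be technical.

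RIPK2 encodes a kinase that relays signals from the peptidoglycan sensors NOD1 and NOD2. Its transcript count was 296 to 338 in 22Rv1 control, 140 to 177 with gRNA 1 and 101 to 108 with gRNA 10. In DU145 it was 820 to 926 in control, 199 to 274 with gRNA 2 and 670 to 723 with gRNA 10. In PC3 it was 1191 to 1256 in control, 406 to 441 with gRNA 2 and 527 to 588 with gRNA 10. The fall passed the test in 5 of the 6 comparisons; in DU145 with gRNA 10 the libraries did not overlap, but the change (log2 -0.29 ± 0.11 SE) missed the threshold (adjusted p = 0.0614, edgeR). A transcript count does not measure the protein left after editing. Totals were 17958558 to 20650819 counts per library. Levels are given as CPM, counts relative to library size as scaled by edgeR's TMM factors within the line, and a change was called where edgeR's quasi-likelihood test gave a Benjamini-Hochberg adjusted p under 0.05 over all genes tested.

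Of markers known for luminal cells, KLK3 was read 355 to 401 times in 22Rv1 control and 0 times in the control libraries of DU145 and PC3. Other luminal markers were read in all 3 lines. Of a list of 18, 15 averaged 100 counts or more in 22Rv1 control, 8 in DU145 control and 9 in PC3 control. The basal factor TP63 held at most 15 counts in any of the 27 libraries. Of a list of 15 basal markers, 4, 8 and 8 averaged 100 counts or more in the controls of 22Rv1, DU145 and PC3. Among markers of other cells, the 6 leukocyte markers summed to at most 3.27 CPM in any library. None of them reached a group mean of 100 counts in any group, whereas the fibroblast marker COL1A1 did so in every group. In PC3 the 4 endothelial markers summed to 2.98 to 3.63 CPM in control, 21.3 to 23.3 with gRNA 2 and 47.4 to 53.0 with gRNA 10, carried by KDR and PECAM1, while CDH5 and VWF stayed at or under 3 counts with both guides. The 8 fibroblast and muscle markers summed to 75.8 to 78.3 CPM in PC3 control, 57.3 to 68.3 with gRNA 2 and 71.5 to 75.1 with gRNA 10, and in 22Rv1 to 10.8 to 12.7 in control, 22.3 to 40.2 with gRNA 1 and 29.9 to 32.0 with gRNA 10. In DU145 they summed to 16.5 to 17.2 CPM in control, 7.90 to 15.5 with gRNA 2 and 27.2 to 33.7 with gRNA 10, and the endothelial markers to 0.335 to 0.768, 0.166 to 1.09 and 2.20 to 2.69. The part of these markers in the keratin changes was not tested.

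The keratins lie in the type II and type I gene clusters. In GRCh38 with the GENCODE 29 annotation, 6 of the 10 lie within 784 kb of chromosome 12 in the order KRT80, KRT7, KRT81, KRT5, KRT8 and KRT18, the last being the type I gene of the type II cluster. The other 4 lie within 124 kb of chromosome 17 in the order KRT13, KRT15, KRT19 and KRT17. KRT8 (chr12:52897187-52949954, minus strand) and KRT18 (chr12:52948871-52952901, plus strand) overlap at their annotated starts. KRT7 (chr12:52232520-52252186, plus strand) holds the antisense gene KRT7-AS, and KRT81 (chr12:52285913-52291534, minus strand) lies inside the span of KRT86 (chr12:52249300-52309163, plus strand). The libraries were strand-specific, per the labels' protocols; whether strand was used in counting is not given in the sources used here.

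KRT81 is the member whose reads are hardest to place, because KRT86, a near copy that also encodes a hair keratin, shares much of its sequence. Over 1452 aligned coding bases they were 92.8% identical, and the longest identical stretch ran for 605 bases, from coding base 61 to 665 of KRT81. Of the stretches as long as 1 read (150 bases), 33.4% of those in the KRT81 coding sequence occurred whole in KRT86, against 0% for each of the other 9 keratins in any keratin gene or pseudogene. The end of the identical stretch is shown. Reads that lie wholly within the stretch cannot be told apart by their own bases, whereas reads that reach the capitals can. The other read of a pair was not considered. The following lines give coding bases 636 to 695 of GENCODE transcripts of both genes, 5′ to 3′, with the bases that differ in capitals.
KRT81: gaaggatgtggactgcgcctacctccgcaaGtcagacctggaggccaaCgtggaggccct
KRT86: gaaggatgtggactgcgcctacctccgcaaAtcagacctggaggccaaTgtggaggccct

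Among the 10 keratins, those that led differed between the control cells of the 3 lines. In 22Rv1 control KRT8 and KRT18 were far above KRT19 and KRT7, DU145 control also had KRT7, KRT80 and KRT19 at 2019 counts or more in each library, and PC3 control had KRT19, KRT7, KRT81, KRT15 and KRT80 at 230 counts or more. In bulk RNA, fewer cells that express a gene and less RNA per cell cannot be told apart. Of the keratins that could be compared, 7 of 7 were higher in DU145 than in 22Rv1 control (75.9% of all 16322 genes tested were called in either direction). Likewise, 7 of 7 were higher in PC3 than in 22Rv1 control (80.5% of all genes). Between PC3 and DU145 control 3 of 7 were higher in PC3 and 2 lower (75.9% of all genes). KRT15, KRT80 and KRT81 held at most 2 counts in each 22Rv1 control library and passed the filter only through other lines. Against 22Rv1 they could thus hardly come out lower. For KRT15 the lower bound in DU145 over 22Rv1 was 1.65-fold. A filter of at least 10 counts in every library removed these 3 from testing and left KRT7, KRT8, KRT18 and KRT19. Of those 4, 4, 4 and 2 were called in these comparisons. The share of all genes called with that filter is not given here.

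KRT8 and KRT18, the pair of simple epithelia, were the members with the smallest spread between lines. KRT8 had 3449, 2865 and 3387 counts in 22Rv1 control, 8598, 8763 and 9031 in DU145 control and 7010, 6747 and 6975 in PC3 control. KRT18 had 3916, 3347 and 3658 counts in 22Rv1 control, 6640, 6271 and 6632 in DU145 control and 7035, 6919 and 7140 in PC3 control. For both genes all 22Rv1 libraries were the lowest. KRT8 was 2.46-fold higher in DU145 (log2 1.30 ± 0.12 SE, adjusted p = 2.98e-10, edgeR) and KRT18 1.62-fold higher (log2 0.69 ± 0.16 SE, adjusted p = 0.000309). Between PC3 and DU145 neither difference passed the test (KRT8 log2 -0.15 ± 0.12 SE, adjusted p = 0.241; KRT18 log2 0.30 ± 0.16 SE, adjusted p = 0.0803), although the libraries did not overlap; with the control groups fitted alone, both did (adjusted p = 0.000619 for KRT8 and 1.17e-09 for KRT18).

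KRT19, a type I chain of luminal and other simple epithelia that lacks the usual tail, was lowest in 22Rv1 and highest in PC3. It had 135, 115 and 145 counts in 22Rv1 control, 2042, 2019 and 2122 in DU145 control and 10255, 9633 and 10098 in PC3 control. No library of one line came near those of another: the level was 14.1-fold higher in DU145 than in 22Rv1 (log2 3.82 ± 0.23 SE) and 5.55-fold higher in PC3 than in DU145 (log2 2.47 ± 0.20 SE).

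KRT7, the type II chain known from ductal and glandular epithelia, was the most abundant keratin of DU145. Its counts were 53, 29 and 41 in 22Rv1 control, 18651, 19463 and 20572 in DU145 control and 1950, 1896 and 1891 in PC3 control. The level in DU145 was 430-fold that in 22Rv1 (log2 8.75 ± 0.26 SE), and the level in PC3 was 8.94-fold lower than in DU145 (log2 -3.16 ± 0.19 SE). KRT7-AS, its antisense gene, held 112, 196 and 205 counts in DU145 control, 2 in each PC3 control library and 0 in 22Rv1 control.

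KRT80, a type II keratin of epithelial cells, was likewise highest in DU145. It had 4599, 4488 and 4784 counts in DU145 control, 230, 242 and 256 in PC3 control and 1, 1 and 2 in 22Rv1 control. Against the limit of 3 counts per library, it was at least 1348-fold higher in DU145 and at least 80.9-fold higher in PC3 than in 22Rv1.

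KRT81, a type II keratin of hair, and KRT15, a type I keratin of basal cells, were read in PC3 above all. KRT81 had 1398, 1273 and 1335 counts in PC3 control, 19, 14 and 14 in DU145 control and 0 in each 22Rv1 control library, where 0 counts allow up to 0.159 to 0.161 CPM. KRT15 had 704, 653 and 690 counts in PC3 control, 9, 5 and 3 in DU145 control and 0 in 22Rv1 control. The PC3 libraries were 96.7-fold higher than those of DU145 for KRT81 (log2 6.60 ± 0.26 SE) and 135-fold higher for KRT15 (log2 7.07 ± 0.20 SE).

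The other members, known from basal and stratified epithelia, were low in the controls. KRT5 and KRT17 were near the limit of counting where they were listed, and KRT13 was above it in PC3 control. KRT5, the type II chain that defines basal cells, had at most 1 count in any control library, KRT17 at most 5 and KRT13 15, 20 and 23 in PC3 control but at most 1 in DU145 control. PC3 control therefore held KRT15 without KRT5 above the limit of counting; KRT5 has no row for DU145.

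**Figure D1:**
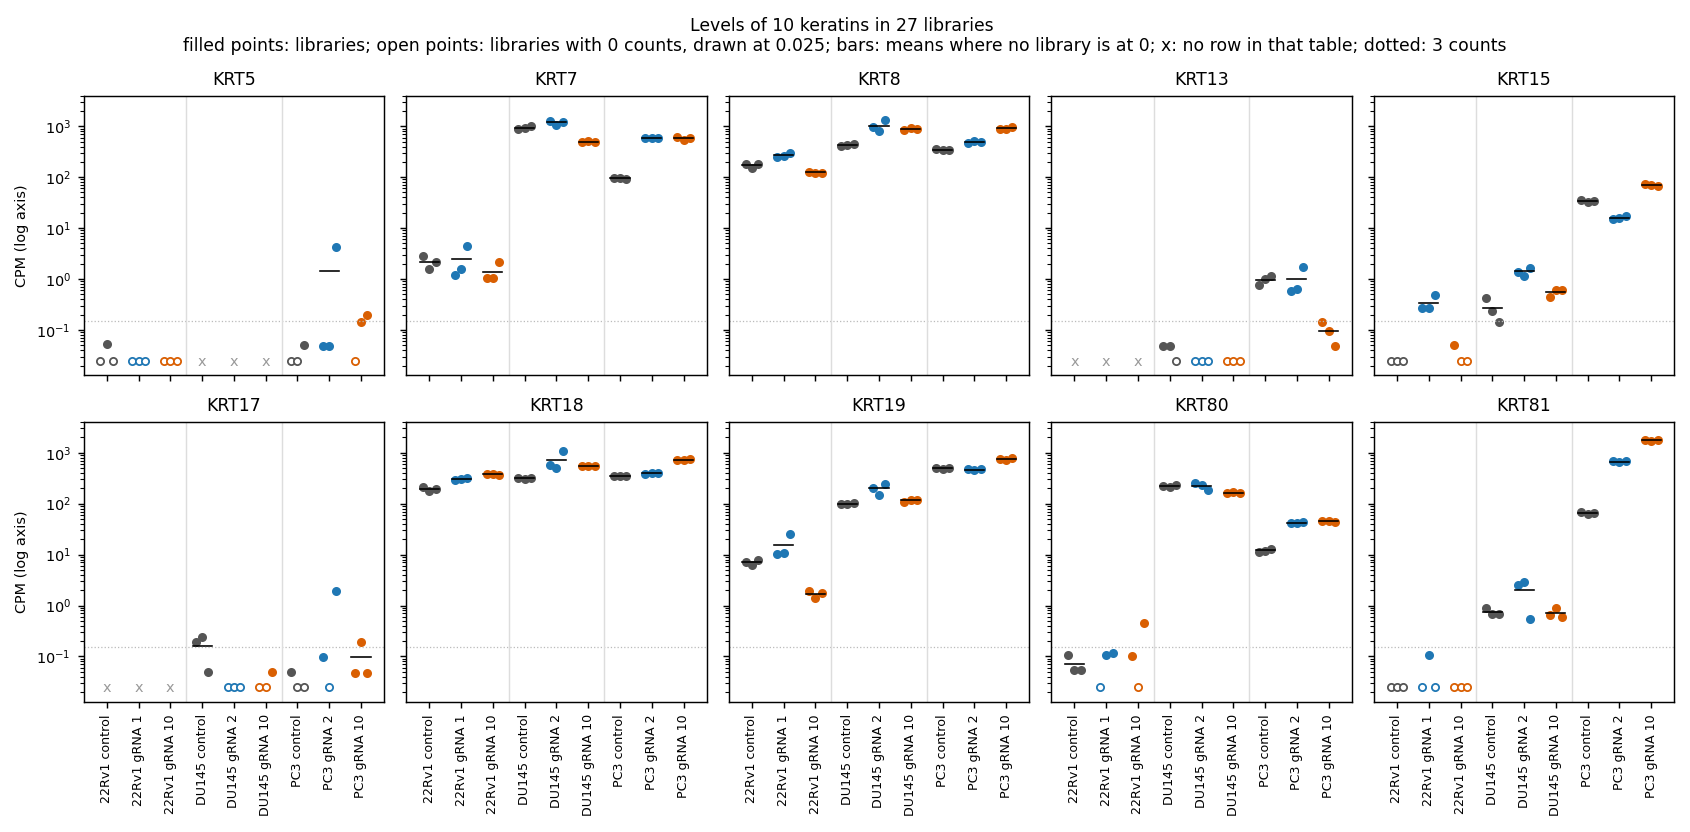
CPM on a log axis for each keratin in each library, with groups on the horizontal axis; grey points are control, blue the first RIPK2 guide and orange gRNA 10. KRT8 and KRT18 are read in every library, and KRT81 climbs in PC3 from 66.4 CPM in control to 1766 with gRNA 10. KRT5 and KRT17 stand highest in 1 library of PC3 with gRNA 2 and have at most 4 and 5 counts in any other library.

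Levels of different genes were compared only per kilobase of the shortest principal transcript (CPM per kb). In 22Rv1 control the order was KRT18 (137 ± 10.2 SD, n = 3), KRT8 (98.6 ± 9.46), KRT19 (5.07 ± 0.58) and KRT7 (1.25 ± 0.36). In DU145 control KRT7 led with 538 ± 31.3, followed by KRT8 at 242 ± 8.22, KRT18 at 221 ± 8.54, KRT19 at 71.5 ± 2.58 and KRT80 at 57.8 ± 2.43. In PC3 control KRT19 led with 358 ± 12.1, followed by KRT18 at 246 ± 3.76 and KRT8 at 196 ± 4.26. Then came KRT7 at 54.3 ± 1.07, KRT81 at 34.4 ± 1.68 and KRT15 at 14.2 ± 0.57. Outside the 10 keratins, KRT20 stood at 100 ± 5.25 in PC3 control, above KRT7. These orders depend in part on the length used: with the union of all exons, KRT18 stood above KRT8 and KRT80 above KRT19 in DU145, and KRT81 above KRT7 in PC3.

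In PC3 both guides went with large rises of a group of type II keratins. With gRNA 2, 7 of the 8 keratins tested were called (5 higher, 2 lower), where 63.6% of all 14718 genes tested were called in either direction. With gRNA 10, all 8 were called (7 higher, 1 lower), where 73.5% of all genes were called. In a line where most genes were called, these counts say little by themselves, and the sizes of the changes follow.

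KRT81 made the largest rise of all members. Its counts were 1398, 1273 and 1335 in control, 13696, 13212 and 13765 with gRNA 2 and 37494, 35461 and 37083 with gRNA 10. The 3 groups were fully apart, with levels of 66.4 ± 3.24, 668 ± 15.5 and 1766 ± 54.3 CPM (SD, n = 3). The rise was 10.1-fold with gRNA 2 (log2 3.33 ± 0.04 SE, adjusted p = 2.87e-32, edgeR) and 26.6-fold with gRNA 10 (log2 4.73 ± 0.04 SE, adjusted p = 3.61e-36), and gRNA 10 exceeded gRNA 2 by 2.64-fold (log2 1.40 ± 0.04 SE). KRT86, the near copy shown above, held 7 to 11 counts in control, 15 to 21 with gRNA 2 and 33 to 52 with gRNA 10, so its row took up far fewer reads than that of KRT81.

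KRT7 rose to one level with both guides. It had 1950, 1896 and 1891 counts in control, 12102, 11885 and 11844 with gRNA 2 and 12631, 11228 and 12481 with gRNA 10. All guide libraries lay far above control, and those of the guides overlapped. The rise was 6.19-fold with gRNA 2 (log2 2.63 ± 0.04 SE, adjusted p = 1.40e-29) and 6.13-fold with gRNA 10 (log2 2.62 ± 0.04 SE, adjusted p = 6.23e-30). KRT7-AS held 2 counts in each control library, 15 to 28 with gRNA 2 and 12 to 23 with gRNA 10.

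KRT80 followed the same course at a lower level. Its counts were 230, 242 and 256 in control, 857, 838 and 874 with gRNA 2 and 935, 954 and 922 with gRNA 10. All 6 guide libraries were above all controls, by 3.50-fold with gRNA 2 (log2 1.81 ± 0.06 SE, adjusted p = 2.67e-21) and 3.74-fold with gRNA 10 (log2 1.90 ± 0.06 SE, adjusted p = 1.83e-22).

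KRT8 and KRT18 rose less, and more with gRNA 10. KRT8 had 7010, 6747 and 6975 counts in control, 9663, 10602 and 9975 with gRNA 2 and 18133, 18325 and 19832 with gRNA 10, a rise of 1.45-fold (log2 0.53 ± 0.04 SE) and 2.63-fold (log2 1.39 ± 0.04 SE). KRT18 had 7035, 6919 and 7140 counts in control, 7767, 7999 and 8114 with gRNA 2 and 14708, 14683 and 15676 with gRNA 10, a rise of 1.12-fold (log2 0.17 ± 0.04 SE) and 2.07-fold (log2 1.05 ± 0.04 SE). For both genes the 3 groups did not overlap.

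The type I keratins KRT15 and KRT19 moved in opposite directions with the 2 guides. KRT15 had 704, 653 and 690 counts in control, 302, 316 and 351 with gRNA 2 and 1505, 1454 and 1386 with gRNA 10. Every gRNA 2 library was below and every gRNA 10 library above control, with log2 fold changes of -1.09 ± 0.06 (SE, adjusted p = 2.86e-15) and 1.04 ± 0.05 (adjusted p = 3.18e-17). KRT19 had 10255, 9633 and 10098 counts in control, 9600, 9175 and 9509 with gRNA 2 and 15953, 15156 and 16566 with gRNA 10. It rose 1.54-fold with gRNA 10 (log2 0.62 ± 0.04 SE, adjusted p = 1.15e-15). The call for a fall with gRNA 2 (log2 -0.10 ± 0.04 SE, adjusted p = 0.0218) was lost without control replicate 1 (adjusted p = 0.101), control replicate 3 (0.0684) or gRNA 2 replicate 2 (0.118).

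KRT13, a type I keratin of stratified epithelia, fell with gRNA 10. It had 15, 20 and 23 counts in control and 3, 2 and 1 with gRNA 10, at least 6.54-fold lower (adjusted p = 1.75e-05, edgeR). With gRNA 2 the counts were 12, 13 and 35, and the log2 fold change of 0.04 ± 0.34 (SE) did not pass (adjusted p = 0.934); it turned to -0.64 without replicate 3 (adjusted p = 0.105).

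That replicate 3 of PC3 with gRNA 2 stood apart in keratins of basal and stratified epithelia. KRT5 had 85 counts there, against 1 and 1 in replicates 1 and 2, and KRT17 had 39 against 2 and 0. The airway genes SCGB1A1, a secretory cell protein with 123 counts, BPIFB1 with 97, PIGR with 55 and the cilia factor FOXJ1 with 17 were also high in this library and at most 2 in replicates 1 and 2; these genes were chosen after their values were seen. By a rule of at least 15 counts and more than 5 times the higher of the other replicates, 26 genes stood out in replicate 3, 2 in replicate 1 and 0 in replicate 2. The part of these genes in the KRT13 value was not tested. Without this library the 7 calls with gRNA 2 were still 7, and the log2 fold changes were 3.32 for KRT81, 2.63 for KRT7 and 1.79 for KRT80.

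In DU145 the pair KRT8 and KRT18 rose with both guides, and KRT7 moved in opposite directions. With gRNA 2, 6 of the 7 keratins tested were called, all higher (34.0% of all 14908 genes tested were called in either direction). With gRNA 10, 4 of 7 were called, 2 higher and 2 lower (40.0% of all genes). Of the 7, KRT8 and KRT18 changed in one direction with both guides.

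KRT8 had 8598, 8763 and 9031 counts in control, 19188, 16290 and 24322 with gRNA 2 and 16418, 18848 and 18054 with gRNA 10. All 6 guide libraries were above control, by 2.43-fold with gRNA 2 (log2 1.28 ± 0.16 SE, adjusted p = 0.000323, edgeR) and 2.10-fold with gRNA 10 (log2 1.07 ± 0.16 SE, adjusted p = 0.000559). KRT18 had 6640, 6271 and 6632 counts in control, 11607, 10414 and 19862 with gRNA 2 and 10978, 11166 and 10773 with gRNA 10. Its guide libraries were likewise all above control, by 2.31-fold with gRNA 2 (log2 1.21 ± 0.23 SE, adjusted p = 0.00318) and 1.75-fold with gRNA 10 (log2 0.81 ± 0.23 SE, adjusted p = 0.0185). Replicate 3 of gRNA 2 was the highest library for both genes. The share of counts on mitochondrially encoded genes was 1.26% to 1.32% in DU145 control, 1.75% and 2.12% in replicates 1 and 2 of gRNA 2, 2.89% in replicate 3 and 2.46% to 2.77% with gRNA 10, and its part in these values was not tested. Without replicate 3 the log2 fold change of KRT18 with gRNA 2 was 0.79 (adjusted p = 7.39e-07). The KRT18 call with gRNA 10 did not hold when genes of low counts were kept (adjusted p = 0.0533) and in each fit without 1 control or 1 gRNA 10 library (adjusted p = 0.0523 to 0.0658).

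KRT7 had 18651, 19463 and 20572 counts in control, 25757, 22222 and 22142 with gRNA 2 and 9680, 10237 and 9922 with gRNA 10. The libraries of gRNA 2 were all above control and those of gRNA 10 all below, without overlap. The rise with gRNA 2 was 1.27-fold (log2 0.34 ± 0.09 SE, adjusted p = 0.0157) and the fall with gRNA 10 was 1.89-fold (log2 -0.92 ± 0.09 SE, adjusted p = 3.64e-05). The call for the rise was lost without control replicate 1 (adjusted p = 0.0825) or 2 (0.0660) and with the groups compared alone (0.0614). KRT7-AS held 117, 128 and 63 counts with gRNA 2 and 35, 55 and 27 with gRNA 10, the latter below all controls (log2 -2.08 ± 0.33 SE, adjusted p = 0.000711).

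KRT19 and KRT15 rose with gRNA 2. KRT19 had 2042, 2019 and 2122 counts in control, 4145, 3039 and 4458 with gRNA 2 and 2163, 2410 and 2397 with gRNA 10; the rise with gRNA 2 was 2.01-fold (log2 1.01 ± 0.15 SE, adjusted p = 0.000815). KRT15 had 9, 5 and 3 counts in control, 28, 24 and 30 with gRNA 2 and 9, 12 and 12 with gRNA 10; the rise with gRNA 2 was 5.03-fold (log2 2.33 ± 0.35 SE, adjusted p = 0.000764). With gRNA 10 neither passed (KRT19 log2 0.23 ± 0.15 SE, adjusted p = 0.258; KRT15 log2 1.00 ± 0.40 SE, adjusted p = 0.0722), and each of these did pass in 1 alternative: KRT19 with the groups compared alone (adjusted p = 0.000853) and KRT15 without control replicate 1 (adjusted p = 0.0317).

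KRT80 fell with gRNA 10, and no change was called with gRNA 2. It had 4599, 4488 and 4784 counts in control, 5136, 4806 and 3318 with gRNA 2 and 3184, 3400 and 3238 with gRNA 10. The gRNA 10 libraries lay below all controls (1.36-fold lower, log2 -0.44 ± 0.11 SE, adjusted p = 0.00920). With gRNA 2 the value was log2 0.01 ± 0.11 (SE, adjusted p = 0.970). KRT80 was also lower with gRNA 10 than with gRNA 2 (log2 -0.45 ± 0.11 SE, adjusted p = 0.00928).

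KRT81 was thinly read in DU145. It had 19, 14 and 14 counts in control, 51, 59 and 10 with gRNA 2 and 13, 18 and 12 with gRNA 10. The gRNA 2 libraries overlapped control because replicate 3 was the lowest of all 9. The call with gRNA 2 (log2 1.40 ± 0.48 SE, adjusted p = 0.0449) was lost with the groups compared alone (0.0910) and without control replicate 1 (0.0852), 2 (0.128) or 3 (0.125) or gRNA 2 replicate 1 (0.124) or 2 (0.133); without replicate 3 of gRNA 2 it was log2 1.83 (adjusted p = 2.78e-05). KRT86 held 16 to 24 counts in control, about as many as KRT81, 8 to 23 with gRNA 2 and 4 to 11 with gRNA 10. The part of shared reads in the KRT81 values was not tested.

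In 22Rv1 both guides went with more KRT18, while KRT8 and KRT19 moved in opposite directions. With gRNA 1, 3 of the 4 keratins tested were called, all higher (48.5% of all 15198 genes tested were called in either direction). With gRNA 10, 3 of 4 were called, 1 higher and 2 lower (40.6% of all genes).

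KRT18 had 3916, 3347 and 3658 counts in control, 5573, 5595 and 5399 with gRNA 1 and 7476, 7344 and 7058 with gRNA 10. The 3 groups did not overlap; the rise was 1.57-fold with gRNA 1 (log2 0.65 ± 0.09 SE, adjusted p = 0.000132, edgeR) and 1.93-fold with gRNA 10 (log2 0.95 ± 0.09 SE, adjusted p = 1.05e-05). KRT8, its type II partner, had 3449, 2865 and 3387 counts in control, 4711, 4834 and 4938 with gRNA 1 and 2426, 2366 and 2399 with gRNA 10. All gRNA 1 libraries were above and all gRNA 10 libraries below control: KRT8 rose 1.55-fold with gRNA 1 (log2 0.63 ± 0.10 SE, adjusted p = 0.000438) and fell 1.40-fold with gRNA 10 (log2 -0.49 ± 0.10 SE, adjusted p = 0.00258). Counts of KRT8 pseudogenes equalled 8.70% to 11.4% of the KRT8 count in 22Rv1 control, 4.76% to 5.69% with gRNA 1 and 8.41% to 9.0% with gRNA 10.

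KRT19 had 135, 115 and 145 counts in control, 194, 203 and 419 with gRNA 1 and 38, 27 and 34 with gRNA 10. The groups were apart: KRT19 rose 2.18-fold with gRNA 1 (log2 1.12 ± 0.30 SE, adjusted p = 0.0109) and was 4.13-fold lower with gRNA 10 (log2 -2.05 ± 0.35 SE, adjusted p = 0.000896). Replicate 3 of gRNA 1 held 419 of these counts and had 16.7% of its reads on mitochondrially encoded genes, against 0.515% to 2.10% in the other 8 libraries of the line; its part in the KRT19 value was not tested. Without it the rise was smaller but still called (log2 0.58, adjusted p = 0.00231), and without control replicate 2 it was log2 1.03 with an adjusted p of 0.0565.

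KRT7 was at the low end of testing in 22Rv1, with 53, 29 and 41 counts in control, 23, 29 and 76 with gRNA 1 and 20, 20 and 41 with gRNA 10. The groups overlapped and neither guide passed the test (adjusted p = 0.830 and 0.319). With gRNA 1 the log2 fold change was 0.14 ± 0.47 (SE), and -0.66 without replicate 3 of gRNA 1 (adjusted p = 0.117, edgeR). KRT15 had 0 counts in each control library, 5, 5 and 8 with gRNA 1 and 1, 0 and 0 with gRNA 10, too few for a test. KRT80 had at most 9, KRT81 at most 2 and KRT5 at most 1 count in any 22Rv1 library.

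**Figure D2:**
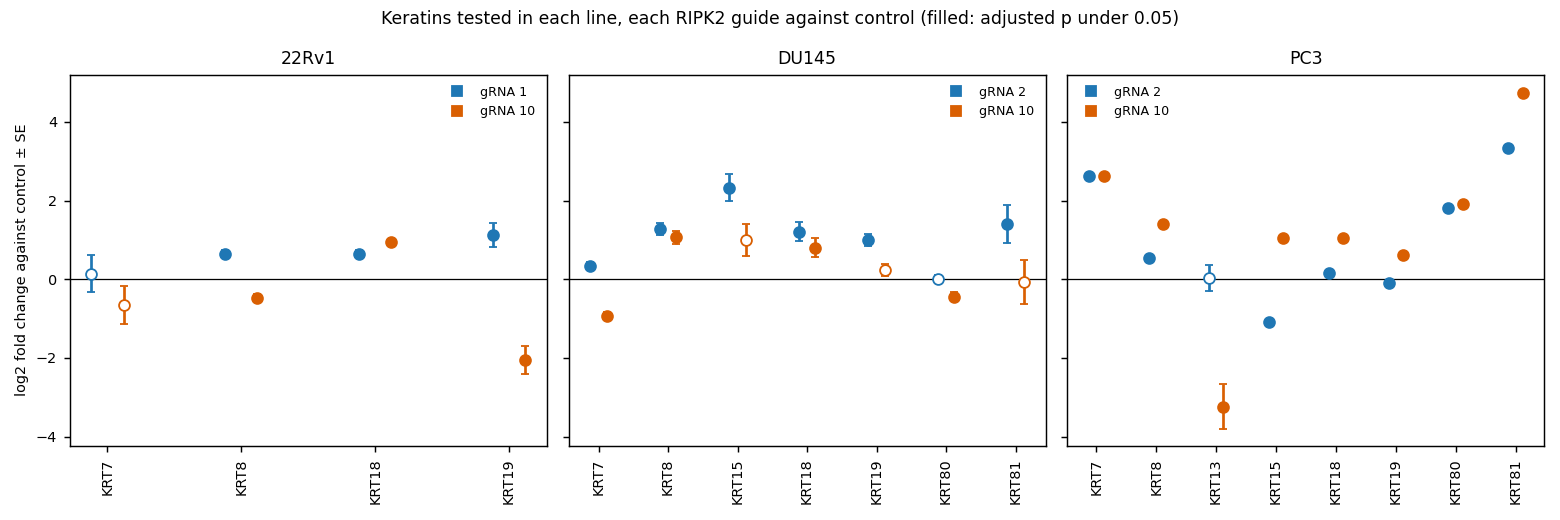
Log2 fold change of each RIPK2 guide against control with its standard error, for the keratins that passed the filter in each line (4, 7 and 8 genes); filled symbols had an adjusted p under 0.05. KRT18 is above 0 for both guides in all 3 lines, while KRT8 and KRT19 in 22Rv1, KRT7 in DU145 and KRT15 and KRT19 in PC3 have filled symbols on both sides of 0.

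Both guides were called in the same direction for 1 of the 4 keratins tested in 22Rv1 (KRT18; 24.6% of all genes tested), 2 of 7 in DU145 (KRT8 and KRT18; 16.1% of all genes) and 5 of 8 in PC3 (KRT7, KRT8, KRT18, KRT80 and KRT81; 34.2% of all genes). They were called in opposite directions for 2 in 22Rv1 (KRT8 and KRT19; 2.43% of all genes), 1 in DU145 (KRT7; 2.40% of all genes) and 2 in PC3 (KRT15 and KRT19; 15.5% of all genes). The guides of a line share their control libraries, so the calls of a gene with both guides are not independent. KRT18 was the one keratin called higher with both guides in each line, with log2 fold changes of 0.65 and 0.95 in 22Rv1, 1.21 and 0.81 in DU145 and 0.17 and 1.05 in PC3. Its call in DU145 with gRNA 10 was kept in 6 of 13 alternatives (adjusted p up to 0.0658). Of the calls in opposite directions, that of KRT19 in 22Rv1 with gRNA 1 was kept in 12 of 13 alternatives. Those of KRT7 in DU145 with gRNA 2 and KRT19 in PC3 with gRNA 2 were each kept in 10 of 13. The remaining ones were kept in all 13.

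The 2 populations of a line were also compared with each other directly. In 22Rv1, gRNA 10 differed from gRNA 1 in 3 of 4 keratins, with KRT18 higher and KRT8 and KRT19 lower (35.6% of all genes were called). In DU145, gRNA 10 differed from gRNA 2 in 5 of 7, all lower: KRT7, KRT15, KRT19, KRT80 and KRT81 (38.8% of all genes). In PC3, gRNA 10 differed from gRNA 2 in 6 of 8, with KRT8, KRT15, KRT18, KRT19 and KRT81 higher and KRT13 lower (73.4% of all genes). The widest gap in 22Rv1 was that of KRT19 (log2 -3.17 ± 0.35 SE, adjusted p = 5.75e-05, edgeR), in DU145 that of KRT81 (log2 -1.48 ± 0.49 SE, adjusted p = 0.0350) and in PC3 that of KRT13 (at least 6.71-fold lower with gRNA 10). Without replicate 3 of gRNA 2 the KRT13 bound was 4.18-fold (log2 -2.60, adjusted p = 0.000122), below the 4.38-fold of KRT15 in the fit of all libraries (log2 2.13 ± 0.06 SE). The KRT81 libraries of the guides overlapped in DU145, and the call was lost with the groups compared alone (adjusted p = 0.0761) and without gRNA 2 replicate 1 (0.104) or 2 (0.104) or gRNA 10 replicate 1 (0.0951), 2 (0.0637) or 3 (0.103). The KRT18 call in 22Rv1 (log2 0.29 ± 0.08 SE, adjusted p = 0.02004) was lost without gRNA 1 replicate 1 (0.0633) or 2 (0.0541) or gRNA 10 replicate 1 (0.0768) or 2 (0.0720). In PC3 KRT7 differed between the guides by log2 -0.01 ± 0.04 (SE, adjusted p = 0.762) and KRT80 by log2 0.10 ± 0.05 (adjusted p = 0.0813).

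Whether the guide effect, the mean of both guides against control, differed between lines was tested in one model of all 27 libraries for the keratins that could be tested in both lines. DU145 differed from 22Rv1 in 2 of 4, KRT8 and KRT19, both higher in DU145 (47.1% of all 16322 genes were called). PC3 differed from 22Rv1 in 3 of 4, KRT7, KRT8 and KRT19, all higher in PC3 (45.3% of all genes). PC3 differed from DU145 in 4 of 7, with KRT7, KRT80 and KRT81 higher and KRT15 lower in PC3 (42.2% of all genes). The guides were called in opposite directions for KRT8 and KRT19 in 22Rv1, KRT7 in DU145 and KRT15 and KRT19 in PC3. In those cases the mean of both guides stands for neither population. The effect on KRT18 was not called different between any lines: the differences were log2 0.21 ± 0.19 (SE, adjusted p = 0.396) for DU145 against 22Rv1, -0.21 ± 0.19 (adjusted p = 0.394) for PC3 against 22Rv1 and -0.42 ± 0.19 (adjusted p = 0.0799) for PC3 against DU145. The last passed in the fits without 1 gRNA 2 library of DU145 (adjusted p = 0.00824 to 0.0350), and PC3 against 22Rv1 passed with the groups compared alone (adjusted p = 0.0300).

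On one scale for all libraries, KRT81 was highest in PC3 with gRNA 10 (1883 ± 56.0 CPM, SD, n = 3), then in PC3 with gRNA 2 (714 ± 16.1) and PC3 control (71.6 ± 3.63), and the highest mean of any DU145 or 22Rv1 group was 1.92 CPM. KRT7 ran from DU145 with gRNA 2 (1157 ± 101) and DU145 control (917 ± 53.8) over PC3 with gRNA 2 (629 ± 7.14) and gRNA 10 (622 ± 39.3), which overlapped, to DU145 with gRNA 10 (488 ± 13.4), PC3 control (103 ± 2.22) and 22Rv1, whose 3 groups overlapped, with means of 1.37 to 2.34 CPM. The PC3 guide populations thus read KRT7 at a level between those of DU145 control and DU145 with gRNA 10.

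KRT8 was highest in DU145 with gRNA 2 (997 ± 275 CPM) and PC3 with gRNA 10 (963 ± 41.8), which overlapped, and lowest in 22Rv1 with gRNA 10 (122 ± 1.69). KRT18 was highest in PC3 with gRNA 10 (771 ± 24.5) and DU145 with gRNA 2 (704 ± 313), which overlapped, and lowest in 22Rv1 control (189 ± 15.5). The 9 groups of KRT19 did not overlap with their neighbours in order, from PC3 with gRNA 10 (816 ± 33.3) to 22Rv1 with gRNA 10 (1.67 ± 0.28). For KRT19 all PC3 groups stood above all DU145 groups, and all DU145 groups above all 22Rv1 groups.

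The make-up of the RNA of the 10 keratins followed from these levels. The summed level of the members was 907 ± 22.2 CPM per kb in PC3 control, 1595 ± 12.4 with gRNA 2 and 2864 ± 97.3 with gRNA 10. Of that sum KRT19 made up 39.5% ± 0.37 in the PC3 control libraries (SD over 3), 20.96% ± 0.48 with gRNA 2 and 19.2% ± 0.19 with gRNA 10, whereas KRT81 went from 3.80% ± 0.10 to 21.7% ± 0.43 and 32.0% ± 0.64. In DU145 the sum was 1131 ± 48.0 in control, 1983 ± 441 with gRNA 2 and 1305 ± 46.1 with gRNA 10, and KRT7 went from 47.6% ± 0.95 of it in control to 35.2% ± 5.92 and 21.8% ± 0.27. In 22Rv1 the sum was 242 ± 20.1 in control, 381 ± 28.7 with gRNA 1 and 337 ± 8.23 with gRNA 10, and KRT18 made up 56.7% ± 1.03, 56.7% ± 1.83 and 78.5% ± 0.60 of it. With the union of all exons as length, KRT81 made up 7.88%, 38.7% and 52.0% of the sum in PC3 control, with gRNA 2 and with gRNA 10, KRT19 48.7%, 22.2% and 18.6%, and the sums were 437, 896 and 1762 CPM per kb. As a share of all counts, the members held 0.0376% ± 0.0032 in 22Rv1 control, 0.207% ± 0.0072 in DU145 control, 0.137% ± 0.0029 in PC3 control and 0.495% ± 0.014 in PC3 with gRNA 10.

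**Figure D3:**
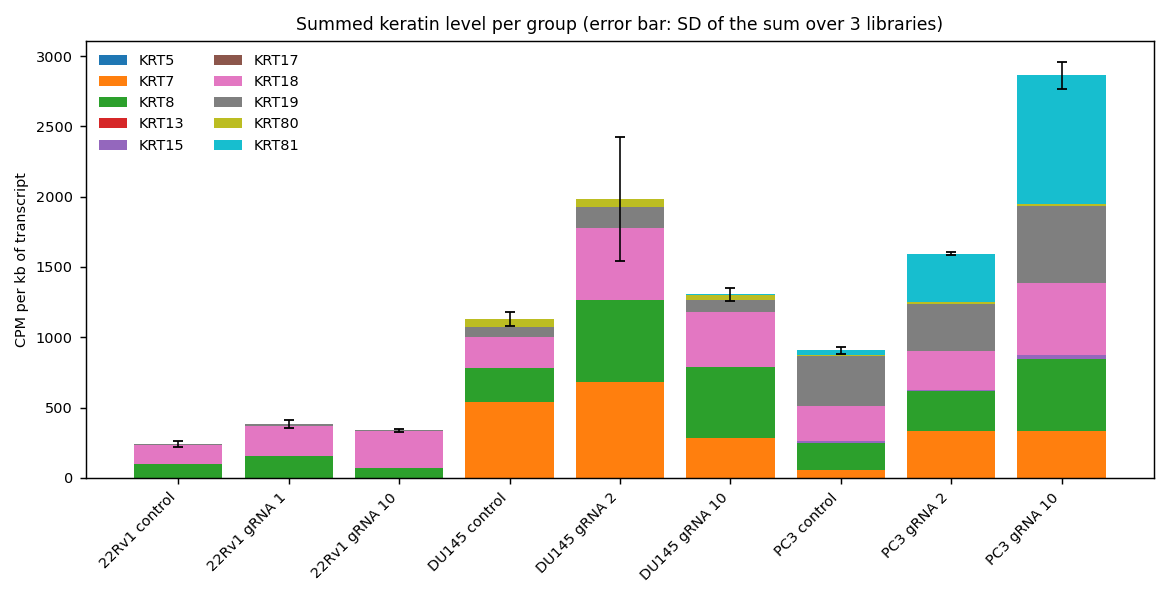
Stacked CPM per kb of the 10 keratins in each group (means of 3 libraries; the error bar is the SD of the sum). The tallest bar is PC3 with gRNA 10 at 2864 CPM per kb, KRT7 is the largest part of DU145 control, and the 22Rv1 bars hold almost nothing but KRT8 and KRT18.

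Since filaments need both chain types, the ratio of KRT8 to KRT18 (CPM per kb, type II over type I) was followed in each library. In 22Rv1 it was 0.69, 0.71 and 0.75 in control (in rising order), 0.68, 0.70 and 0.74 with gRNA 1 and 0.26, 0.26 and 0.28 with gRNA 10. The mean was 0.27 ± 0.01 (SD, n = 3) with gRNA 10 against 0.72 ± 0.03 in control, without overlap, and gRNA 1 overlapped control. In PC3 the ratio was 0.80 ± 0.01 in control, 1.02 ± 0.04 with gRNA 2 and 1.01 ± 0.01 with gRNA 10, both above control. In DU145 it was 1.09 ± 0.04 in control, 1.20 ± 0.18 with gRNA 2, which overlapped control, and 1.31 ± 0.09 with gRNA 10, which did not. The size of the ratio depends on the length used. With the union of all exons every group was below 1. The ratios (control, first guide, gRNA 10) were then 0.42, 0.41 and 0.15 in 22Rv1, 0.63, 0.69 and 0.76 in DU145 and 0.46, 0.59 and 0.58 in PC3. The length scales this ratio alike in every library, so its place relative to 1 cannot be read. Groups were compared only within a line.

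Over all members, type II exceeded type I 2.86 ± 0.12 times in DU145 control (SD, n = 3), 2.15 ± 0.48 times with gRNA 2 and 1.77 ± 0.07 times with gRNA 10. In PC3 the balance turned from 0.465 ± 0.003 in control to 1.58 ± 0.03 with gRNA 2 and 1.63 ± 0.02 with gRNA 10. In 22Rv1 it was 0.70 ± 0.03 in control, 0.68 ± 0.02 with gRNA 1 and 0.27 ± 0.01 with gRNA 10. With the union of all exons as length the PC3 ratios were 0.34, 1.77 and 2.13, and with the type I keratins KRT10 and KRT20 and the type II keratin KRT75 added they were 0.39, 1.56 and 1.66. These ratios are of RNA and describe the sum over the list, with no test.

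**Figure D4:**
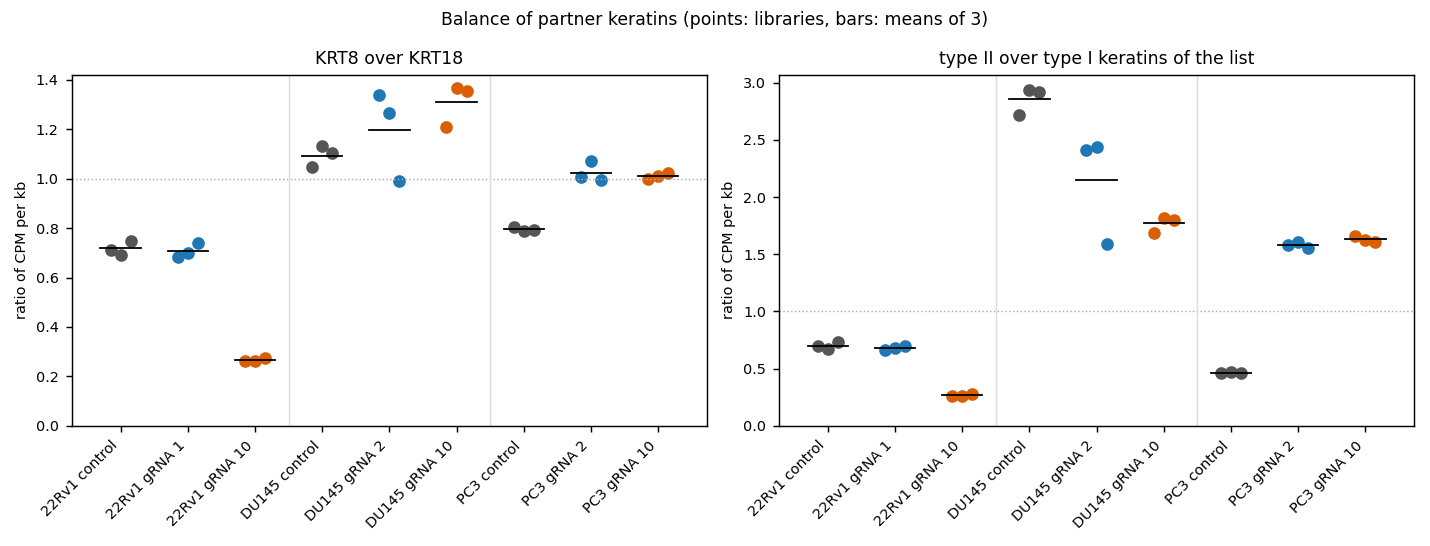
Left, CPM per kb of KRT8 over KRT18 in each library; right, the same for the summed type II over the summed type I keratins of the list; points are libraries and bars are means of 3. KRT8 over KRT18 drops to 0.27 in 22Rv1 with gRNA 10, and type II over type I rises above 1 in PC3 with both guides (1.58 and 1.63, against 0.465 in control).

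Besides the 10, the tables listed further keratin genes, numbering 12 for 22Rv1, 26 for DU145 and 34 for PC3. Of these, KRT10, KRT20 and KRT75 reached a group mean of 100 counts in any group. KRT20, a type I keratin of intestinal and urothelial surface cells, had 3413, 3354 and 3707 counts in PC3 control, 17, 25 and 26 with gRNA 2 and 150, 143 and 162 with gRNA 10. It fell with both guides, by log2 -7.27 ± 0.09 (SE, adjusted p = 1.97e-32, edgeR) and -4.57 ± 0.06 (adjusted p = 1.29e-31). KRT75, a type II keratin of hair follicles, rose beside KRT81, from 148, 172 and 161 counts to 649, 531 and 624 with gRNA 2 (log2 1.89 ± 0.08 SE) and 3256, 3031 and 3264 with gRNA 10 (log2 4.26 ± 0.07 SE). KRT20 and KRT75 had at most 2 counts in any 22Rv1 or DU145 library. KRT10, a type I keratin of differentiated epidermis, fell in PC3 by log2 0.34 with gRNA 2 and 0.37 with gRNA 10, and no change was called in the other lines.

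Genes to which keratin filaments attach, a list of 21 desmosome, hemidesmosome and plakin genes, moved in both directions in 5 of the 6 comparisons. In PC3, 9 of 20 tested rose and 8 fell with gRNA 2 (63.6% of all genes called), and 10 rose and 8 fell with gRNA 10 (73.5% of all genes); the list's median log2 fold changes were 0.08 and 0.14, beside 0.01 and 0.01 over all genes. DSC2, a desmosomal cadherin, rose from 0.53 ± 0.07 CPM in PC3 control to 4.24 ± 0.18 with gRNA 2 and 47.4 ± 1.37 with gRNA 10 (SD, n = 3), and DSP, the plakin that ties keratins to desmosomes, from 36.5 ± 1.65 to 108 ± 2.42 and 145 ± 12.9. PKP3 and DST fell, PKP3 from 101 ± 3.04 CPM to 56.6 ± 2.95 and 72.1 ± 1.72. In DU145, 8 of 20 rose and 2 fell with gRNA 2 (34.0% of all genes), and 3 rose and 7 fell with gRNA 10 (40.0% of all genes; medians 0.23 and 0.01); PKP2 rose with both guides, from 6.4 ± 0.11 to 12.3 ± 1.52 and 20.8 ± 0.32 CPM. In 22Rv1, 9 of 18 rose and 6 fell with gRNA 1 (48.5% of all genes), and 7 rose and 0 fell with gRNA 10 (40.6% of all genes; medians 0.35 and 0.32); EVPL, the cornified envelope plakin, rose from 0.41 ± 0.26 to 32.7 ± 19.3 and 6.01 ± 0.34 CPM.

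Of 23 transcription factors known from keratin or epithelial gene expression, 18 were tested in each line. In 22Rv1, 10 rose and 5 fell with gRNA 1 (48.5% of all genes called), and 7 rose and 5 fell with gRNA 10 (40.6%). GATA3 rose from 0.75 ± 0.24 CPM in 22Rv1 control to 120 ± 29.5 with gRNA 1 and 6.15 ± 0.98 with gRNA 10, while the epithelial factors EHF and GRHL2 fell, EHF from 415 ± 21.1 to 51.4 ± 18.2 and 119 ± 5.75 CPM. In DU145, 4 rose and 3 fell with gRNA 2 (34.0% of all genes) and 7 rose and 4 fell with gRNA 10 (40.0%), and SOX9 rose from 0.77 ± 0.09 to 10.3 ± 4.37 and 7.36 ± 0.54 CPM. In PC3, 6 rose and 5 fell with gRNA 2 (63.6% of all genes) and 6 rose and 8 fell with gRNA 10 (73.5%); ELF3 rose from 10.8 ± 1.10 to 15.3 ± 0.51 and 20.4 ± 1.13 CPM, and KLF4 and TFAP2A fell. The medians of the list lay between -0.10 and 0.64, and those over all genes were at most 0.02.

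Of 14 intermediate filament genes that are not keratins, 10 were tested in 22Rv1, where 4 rose and 3 fell with gRNA 1 (48.5% of all genes called) and 4 rose and 2 fell with gRNA 10 (40.6%). Of 12 tested in DU145, 4 rose and 2 fell with gRNA 2 (34.0%) and 3 rose and 2 fell with gRNA 10 (40.0%). Of 9 tested in PC3, 6 rose and 1 fell with gRNA 2 (63.6%) and 5 rose and 2 fell with gRNA 10 (73.5%). Their medians lay between -0.26 and 0.30. VIM, vimentin of mesenchymal cells, fell in 22Rv1 from 13.3 ± 1.05 CPM in control to 9.36 ± 0.67 with gRNA 1 and 6.27 ± 0.76 with gRNA 10. The neurofilament gene NEFL rose in DU145 from 2.06 ± 0.05 to 5.85 ± 1.43 and 22.1 ± 0.87 CPM. LMNA, the nuclear lamin, rose in 22Rv1 from 93.8 ± 11.3 to 350 ± 5.24 and 195 ± 1.94 CPM.

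Basal and luminal markers outside the keratins had both rises and falls in PC3. Of 15 basal markers, 7 of 11 tested rose and 2 fell with gRNA 2 (63.6% of all genes called), and 4 rose and 7 fell with gRNA 10 (73.5%); LAMB3, a laminin chain, rose from 12.7 ± 1.26 CPM to 211 ± 2.18 and 29.4 ± 1.80, and CAV1 fell from 509 ± 15.3 to 372 ± 7.22 and 123 ± 5.56. Of 18 luminal markers in PC3, 6 of 12 tested rose and 5 fell with gRNA 2, and 7 rose and 5 fell with gRNA 10; TMPRSS2 rose from 10.7 ± 0.76 CPM to 30.6 ± 0.98 and 108 ± 6.41, and DPP4 fell from 350 ± 5.94 to 77.3 ± 0.45 and 6.71 ± 0.28. In 22Rv1, 1 of 16 luminal markers rose and 11 fell with gRNA 1 (48.5% of all genes), and 6 rose and 7 fell with gRNA 10 (40.6%). HOXB13 fell, at 346 ± 28.9, 142 ± 7.19 and 230 ± 2.89 CPM, while DPP4 rose from 0.91 ± 0.21 CPM to 4.35 ± 0.42 and 6.32 ± 0.11. Of 8 basal markers tested in 22Rv1, 2 rose and 4 fell with gRNA 1, and 3 rose and 1 fell with gRNA 10. Among these, CAV1 fell from 25.3 ± 2.21 CPM to 7.44 ± 1.88 and 2.58 ± 0.05. In DU145, 6 of 10 basal markers rose and 2 fell with gRNA 2 (34.0% of all genes) and 5 rose and 3 fell with gRNA 10 (40.0%). ITGB4, the hemidesmosomal integrin to which basal keratins are tied, rose from 22.7 ± 2.95 CPM to 69.8 ± 10.2 and 39.6 ± 4.08. S100A2 fell from 13.1 ± 0.90 CPM to 7.87 ± 1.71 and 8.59 ± 1.18. Of 10 luminal markers tested in DU145, 2 rose and 2 fell with gRNA 2, and 2 rose and 0 fell with gRNA 10.

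For the 4 keratins tested in all lines, the most similar genes were sought among 13091 non-keratin genes by Pearson r over the 9 group means of log2 CPM, each line centred on its own mean. KRT7 was closest to LINC01719 (r = 0.99) and ZNF726 (r = 0.98), KRT8 to VPS33B (r = 0.98) and ZSWIM7 (r = 0.98), KRT18 to IGHMBP2 (r = 0.97) and PCDHB13 (r = 0.96), and KRT19 to HDDC3 (r = 0.98) and ZC3H7B (r = 0.98). Among the keratins themselves r was 0.66 between KRT8 and KRT18, 0.72 between KRT8 and KRT19 and 0.09 between KRT18 and KRT19. With 9 means and many genes searched, these values are a description, and the means share libraries and line.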

How the data were processed

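Counts of reads per gene symbol, 1 table per line, were deposited by the authors; the labels' protocols give column-based RNA extraction and strand-specific paired-end libraries of 150 bases, and FastQC, STAR, edgeR and hg38 are named per the submitters' processing notes without role or version. Other settings are not given in the sources used here. Rows of one symbol were summed (6 in 22Rv1, 2 in DU145, 2 in PC3). Replicate numbers follow the sample titles. Within each line, edgeR 4.0.16 (R 4.3.3) was run on the 9 libraries with group as the only term (filterByExpr with a minimum count of 10 and total of 15, TMM, robust quasi-likelihood F test, two-sided, Benjamini-Hochberg over all genes); differences between lines used one model of 27 libraries and the 20089 symbols in all 3 tables. SEs are from the F statistic. Against groups at 3 counts or fewer, folds are lower bounds from 3 counts per library, which cover counting error only. The procedure was tested on simulated data. Lengths and coordinates are from GENCODE 29 on GRCh38. Alternatives were RLE factors, DESeq2 1.42.0, other filters, no mitochondrially encoded genes, a replicate block, only the groups compared, and each library left out. RIPK2 was named as a check of the labels, KRT86 and KRT7-AS because they overlap or closely resemble members, and cell type markers and airway genes beside results they touch, chosen after their values were seen. Other genes were named by rule: other keratins that average 100 counts or more in some group; from each list and line, at most 2 rises and 2 falls called with both guides, at that same level; and the 2 genes nearest in pattern to each keratin tested in all lines. The keratins, lists and rules were chosen with earlier results of these data known.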

Additional observations from a re-analysis of the deposited data

Results flagged for a closer look

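For 9 pairs of a keratin and 2 lines, the guide effect (mean of both RIPK2 guides against control) differed by the test of the difference itself in the edgeR model of 27 libraries. The effect on KRT7 was higher in PC3 than in 22Rv1 by log2 2.87 ± 0.33 (SE, adjusted p = 9.09e-08) and than in DU145 by log2 2.90 ± 0.22 (adjusted p = 6.69e-11). In PC3 all 6 guide libraries were above control, in DU145 3 were above and 3 below, and in 22Rv1 they overlapped control.

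The effect on KRT81 was higher in PC3 than in DU145 by log2 3.34 ± 0.45 (adjusted p = 3.37e-06) and that on KRT80 by log2 2.05 ± 0.17 (adjusted p = 2.31e-10). KRT15 differed the other way, by log2 -1.71 ± 0.30 (adjusted p = 7.48e-05); in DU145 it held 3 to 30 counts, and in PC3 the guides moved it in opposite directions.

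Against 22Rv1, the effect on KRT8 was higher in DU145 by log2 1.10 ± 0.15 (adjusted p = 9.07e-07) and in PC3 by log2 0.87 ± 0.15 (adjusted p = 2.30e-05), and that on KRT19 was higher in DU145 by log2 1.08 ± 0.28 (adjusted p = 0.00258) and in PC3 by log2 0.71 ± 0.28 (adjusted p = 0.0410). In 22Rv1 the guides moved KRT8 and KRT19 in opposite directions, so the mean there stands for neither population. The KRT19 difference between PC3 and 22Rv1 was not called with no filter on low counts (adjusted p = 0.0504), with the groups compared alone (0.0591) and in 9 fits with 1 library left out (0.0526 to 0.105): 22Rv1 control 1 or 3, gRNA 1 replicate 1 or 2 or gRNA 10 replicate 2 or 3, and PC3 control 2, gRNA 2 replicate 1 or gRNA 10 replicate 3.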

How the results depend on the processing

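Over 489 values of keratin changes against control under the alternatives, 456 kept direction and side of the threshold, 20 lost the call, 2 gained it and 11 changed sign. In DU145 the count of genes called with gRNA 2 went from 5072 to 3335 and with gRNA 10 from 5956 to 9749 with only the groups compared, and with gRNA 2 it ran from 3259 to 6958 with 1 library left out (lowest without control replicate 1, highest without gRNA 2 replicate 3). Requiring at least 10 counts in every library removed keratins near 0 in 22Rv1 and left 4, 4 and 2 called between the controls (DU145 and PC3 against 22Rv1, PC3 against DU145) and 1 between the guide effects of PC3 and DU145; fewer genes were tested there. Leaving out 1 library moved these log2 values across 0, none of them called in the fit of all libraries: KRT7 in 22Rv1 with gRNA 1 (-0.66 to 0.46) and between its guides (-1.21 to 0.0132); in DU145 KRT80 with gRNA 2 (-0.0932 to 0.14), KRT81 with gRNA 10 (-0.26 to 0.0819) and, between the guides, KRT18 (-0.61 to 0.0155), KRT8 (-0.37 to 0.0223) and KRT10 (-0.35 to 0.0415); in PC3 KRT13 with gRNA 2 (-0.64 to 0.30) and, between the guides, KRT7 (-0.0455 to 0.0402) and KRT10 (-0.0802 to 0.0146); KRT10 in 22Rv1 with gRNA 1 (-0.00051 to 0.22); and the guide effect on KRT7 between DU145 and 22Rv1 (-0.25 to 0.36). For KRT7 in 22Rv1, the values of -0.66 and 0.0132 were those without replicate 3 of gRNA 1. The cause was not tested.

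With the replicate block, the KRT80 value in DU145 with gRNA 2 was -0.0019, and the guide effect on KRT7 between DU145 and 22Rv1 was 0.0229; counts of keratins called were as without it in all 15 comparisons. Same-numbered libraries correlated between -0.19 and 0.34 in their deviations from group means, so the numbers were not taken to pair samples. With KRT8 and KRT18 pseudogene rows added, the ratio of KRT8 to KRT18 was 0.78 in 22Rv1 control, 0.74 with gRNA 1, 0.29 with gRNA 10 and 0.82 in PC3 control. With all keratin pseudogenes the share of counts was 0.0610% and 0.0516% in 22Rv1 with gRNA 1 and gRNA 10 and 0.270% in PC3 with gRNA 2. With lengths from the union of exons, chosen after seeing the data, the ratio of KRT8 to KRT18 was 0.42, 0.41 and 0.15 in 22Rv1 (control, first guide, gRNA 10), 0.63, 0.69 and 0.76 in DU145 and 0.46, 0.59 and 0.58 in PC3; these lengths moved 17 of 27 levels per kb by more than 1 SD. KRT5, KRT13 and KRT17 could not be tested where they were near 3 counts, a limit of 0.145 to 0.167 CPM at these depths.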
